A study of Mus musculus with 24 samples.

Results

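The levels of 10 genes of the NF-kB system were followed in bone marrow-derived macrophages (BMDMs) of the mouse. They were the 5 DNA-binding subunits Nfkb1, Nfkb2, Rel, Rela and Relb, and 5 inhibitors or feedback regulators, Nfkbia, Nfkbib, Nfkbie, Nfkbiz and Tnfaip3. The genes were taken by symbol from the 35770 gene names of the deposited table, and all 10 were among the 13661 genes tested. RNA came from 24 libraries, with 3 independent samples in each of 8 groups. BMDMs of C57BL/6 mice, grown with M-CSF, had received control media or conditioned media (CM) from LL2 cells (derived from the Lewis lung carcinoma of the mouse), and in each medium either vehicle or CDDO-Me, a synthetic triterpenoid known to activate NRF2 and to inhibit NF-kB signalling. The groups were Media/vehicle, WT CM/vehicle, KEAP1 KO CM/vehicle and NRF2 KO CM/vehicle, and the same 4 media with CDDO-Me at 100 nM. Media had been conditioned for 48 h, with a plate without cancer cells as control, CM made up 75% of what the cells received, and RNA was taken after 24 h. KEAP1 and NRF2 had been edited in the LL2 cells, with a single edited line for each knockout, and the macrophages of all groups were unedited, so the levels of these genes in the macrophages are no check of the labels. A single line for each knockout cannot tell the edited gene from other features of that line. The progenitor cells had been split evenly between wells and the number of mice was not given, so p-values measure the spread between these samples, which may be technical.

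NF-kB proteins bind DNA as dimers. RelA (p65) and c-Rel, with the p50 protein made from Nfkb1, form the dimers of the canonical pathway, and RelB with the p52 protein made from Nfkb2 those of the noncanonical pathway. In resting cells the IkB proteins, encoded by Nfkbia, Nfkbib and Nfkbie, hold dimers in the cytoplasm until the IkB kinase marks them for destruction. Nfkbia, Nfkbie, Nfkbiz and Tnfaip3 are textbook NF-kB targets, so the pathway feeds back on itself. Nfkbiz encodes the atypical nuclear protein IkB-zeta, which acts with p50 on secondary response genes, and Tnfaip3 encodes A20, a ubiquitin-editing enzyme that dampens signalling upstream of the kinase. In macrophages this system drives cytokine and chemokine genes after stimulation through Toll-like and TNF receptors.

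On GRCm39, the build of the study, Nfkb1 lies on chromosome 3 from 135290264 to 135397742, Relb on chromosome 7 from 19339017 to 19363425, and Nfkbib on chromosome 7 from 28457486 to 28466937. Tnfaip3 spans chromosome 10 from 18874201 to 18891405, Rel chromosome 11 from 23686847 to 23721264, and Nfkbia chromosome 12 from 55535332 to 55539432. Nfkbiz spans chromosome 16 from 55631738 to 55659262, Nfkbie chromosome 17 from 45866585 to 45874661, Rela chromosome 19 from 5687493 to 5698161, and Nfkb2 chromosome 19 from 46292759 to 46303812. Nfkbie, Rela and Nfkb2 are on the plus strand and the others on the minus strand. Exons of Psd, on the opposite strand, share 24.5% of the exon bases of Nfkb2, and exons of Ccer2 and of the noncoding Gm71901 share 13.3% and 14.3% of those of Nfkbib. The sources used here do not say that the libraries kept strand, so reads from such shared bases cannot be told apart, and the levels of Nfkb2 and Nfkbib are uncertain to that extent.

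The RefSeq promoter table, which uses build GRCm38.p6, held 7 of the 10 genes, and Nfkb1, Relb and Nfkbiz were not in it. The 250 bases before each transcription start were searched on both strands for the kB consensus, the decamer written GGG, a purine, any 2 bases, 2 pyrimidines and CC. It was found before 7 of the 10 starts of these 7 genes and before 7.25% of 32851 starts in the table. Nfkb2, Tnfaip3, Rel, Nfkbia and Nfkbie held at least 1 match before a start, and Nfkbib and Rela none. Nfkbie, Nfkbib and Nfkbia are inhibitors that were called higher with CDDO-Me in KEAP1 KO CM. The call of Nfkbia was lost without KEAP1 KO CM/CDDO-Me replicate 1. Rel was the subunit called lower with CDDO-Me in WT CM. The promoters of these genes are shown here. Each runs 5′ to 3′ on the strand of the gene, with matches in capitals, and overlapping matches on both strands run together in Rel.
Nfkbie, chr17:45555450-45555699, plus strand: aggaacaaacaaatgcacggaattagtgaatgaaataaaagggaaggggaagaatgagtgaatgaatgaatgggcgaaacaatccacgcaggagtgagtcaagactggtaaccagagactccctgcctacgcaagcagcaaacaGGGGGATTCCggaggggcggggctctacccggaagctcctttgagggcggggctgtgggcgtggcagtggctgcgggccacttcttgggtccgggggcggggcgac
Nfkbia, chr12:55492648-55492897, minus strand: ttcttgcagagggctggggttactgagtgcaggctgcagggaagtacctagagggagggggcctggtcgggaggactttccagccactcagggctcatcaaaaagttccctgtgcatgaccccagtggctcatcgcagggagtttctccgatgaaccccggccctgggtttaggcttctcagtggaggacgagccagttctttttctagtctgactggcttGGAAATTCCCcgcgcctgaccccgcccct
Rel, chr11:23770970-23771219, minus strand: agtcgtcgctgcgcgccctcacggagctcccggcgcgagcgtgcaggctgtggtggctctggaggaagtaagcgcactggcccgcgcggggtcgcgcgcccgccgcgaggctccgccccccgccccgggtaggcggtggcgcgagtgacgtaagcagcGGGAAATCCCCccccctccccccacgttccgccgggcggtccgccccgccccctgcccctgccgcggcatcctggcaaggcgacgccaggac
Nfkbib, chr7:28766645-28766894, minus strand: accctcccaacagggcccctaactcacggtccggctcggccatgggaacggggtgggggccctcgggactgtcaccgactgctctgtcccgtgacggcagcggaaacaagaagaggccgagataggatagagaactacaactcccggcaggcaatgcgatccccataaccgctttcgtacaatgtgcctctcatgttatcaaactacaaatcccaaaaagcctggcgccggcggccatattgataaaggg
The match of Nfkbie lay 106 to 97 bases before the start, that of Nfkbia 29 to 20 bases before it, and those of Rel between 92 and 82 bases before it. A match of letters does not show that a factor binds there, and binding was not measured.

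Levels were treated as TPM, each gene's share of the transcripts of a library after correction for length. On that reading they can be compared between genes, and the order and shares of genes below rest on it. TPM keep no read numbers, and the depth of each library is unknown. Replicate 3 of NRF2 KO CM/vehicle and of NRF2 KO CM/CDDO-Me stood apart before any comparison of groups. These 2 libraries had 15702 and 16299 genes above 0 against 17817 to 18993 in the other 22, and correlated with their group mates at 0.903 to 0.941 on the log2 scale against 0.978 to 0.991 for the other pairs of a group. Another library, KEAP1 KO CM/CDDO-Me replicate 1, had 17968 genes above 0 and correlated with its mates at 0.979 and 0.987, but it was far above them for the genes described here. Results are therefore given with all libraries and, where the call or the size changed, without these 3, an alternative chosen after their values were seen. KEAP1 KO CM/CDDO-Me replicate 1 was chosen on the values of the genes described here. Leaving it out lowers the SE of those genes, so p-values without the 3 libraries are no independent test of them. All 8 macrophage markers were above 1 TPM in every library, with a summed level of 14934 to 38385 TPM. Against that, fibroblast markers summed to 217 to 2688 TPM, neutrophil markers to 11.1 to 74.2, endothelial markers to 4.18 to 66.6, dendritic cell markers to 0.822 to 126.8, lymphocyte markers to 4.43 to 16.7, and epithelial markers to 0.214 to 9.23.

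Rela and Nfkb1 were the most abundant subunits. Over all 24 libraries the mean level was 86.7 TPM for Rela and 76.6 TPM for Nfkb1, at percentiles 86.6 and 84.6 of the genes tested. Nfkb2 followed with 40.3 TPM, Relb with 23.8 TPM and Rel with 9.91 TPM. Of the summed level of the 5 subunits, Rela made up 33.5% to 43.2% in the means of the groups, Nfkb1 27.2% to 37.4%, Nfkb2 13.7% to 19.4%, Relb 7.83% to 11.6% and Rel 2.77% to 6.11%. The summed level itself had group means between 215 and 280 TPM. Among the inhibitors and feedback regulators the order of mean levels was Nfkbia with 68.0 TPM, Nfkbib with 41.8 TPM, Nfkbie with 23.8 TPM, Tnfaip3 with 17.3 TPM and Nfkbiz with 10.8 TPM. Nfkbie and Nfkbiz ranged most between groups, with the highest group mean 5.32 and 4.80 times the lowest, while that ratio was between 1.36 and 2.29 for the other 8 genes. Without KEAP1 KO CM/CDDO-Me replicate 1 the ratio of Nfkbie was 3.10, now with NRF2 KO CM/CDDO-Me as the highest group, and that of Nfkbiz was 4.42.

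**Figure D1:**
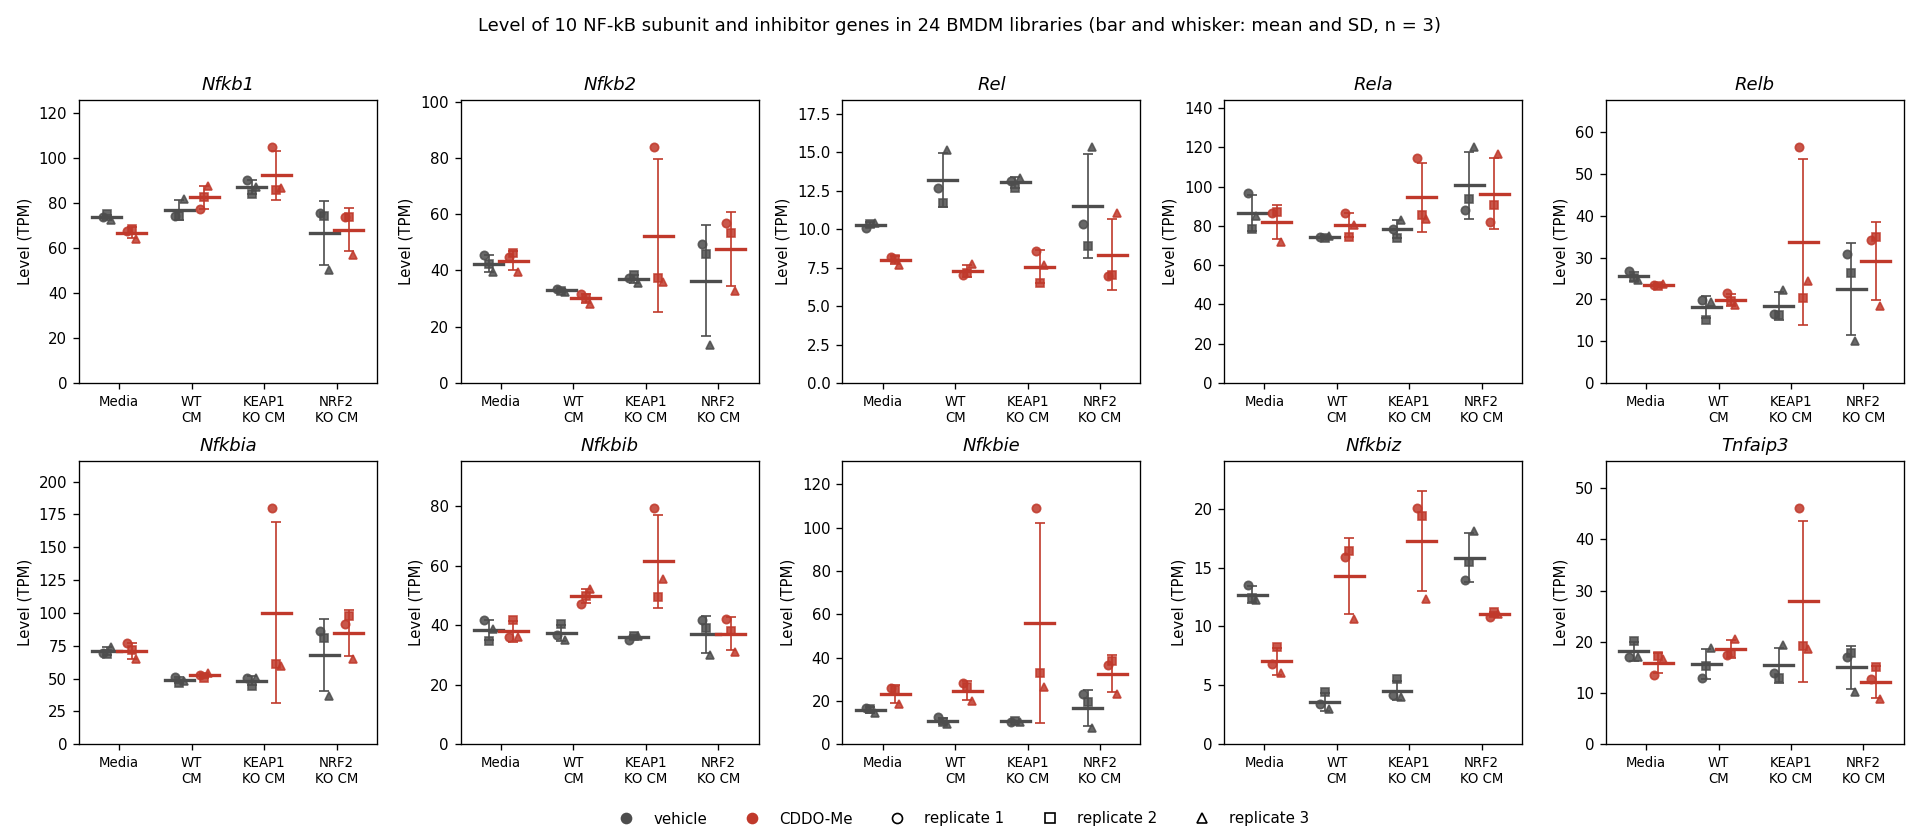
Level in TPM (linear axes from 0) of each of the 10 genes in the 24 libraries, by medium, with vehicle in grey and CDDO-Me in red, symbols for the replicate number, and bars for the mean and SD of the 3 libraries of a group. Nfkbiz is lowest in WT CM/vehicle and KEAP1 KO CM/vehicle, from 2.96 to 5.51 TPM, and replicate 1 of KEAP1 KO CM/CDDO-Me is far above its mates for Nfkb2, Relb, Nfkbia, Nfkbie and Tnfaip3.

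Among vehicle-treated BMDMs, Nfkbiz was lower with CM from WT and KEAP1 KO cells than with control media. Its level was 13.5, 12.4 and 12.2 TPM in the 3 libraries of Media/vehicle, 3.40, 4.41 and 2.96 TPM in WT CM/vehicle, and 4.20, 5.51 and 3.97 TPM in KEAP1 KO CM/vehicle. Every library with either CM was below every library with control media. On the log2 scale of scaled TPM plus 1, on which all fold changes below are given, Nfkbiz fell by 1.53 (SE 0.19, adjusted p 1.4e-05) with WT CM and by 1.31 (SE 0.19, adjusted p 8.3e-05) with KEAP1 KO CM. It was the only gene of the 10 called in these comparisons, in which 7.34% and 7.96% of all genes tested were called. With WT CM 4.33% were higher and 3.02% lower, and with KEAP1 KO CM 4.65% were higher and 3.31% lower, and both comparisons used the same Media/vehicle libraries. In NRF2 KO CM/vehicle, Nfkbiz was 14.0, 15.5 and 18.1 TPM, above all libraries with control media, and the difference of 0.32 (SE 0.19, adjusted p 0.41) did not pass.

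Nfkbia, which encodes the main IkB protein, was 69.3, 68.8 and 74.3 TPM in Media/vehicle, 51.1, 46.8 and 47.9 TPM in WT CM/vehicle, and 50.7, 44.3 and 50.3 TPM in KEAP1 KO CM/vehicle. Nfkbie, which encodes IkB-epsilon, was 16.9, 16.1 and 14.3 TPM, then 12.4, 10.4 and 9.47 TPM, and then 10.5, 10.8 and 10.3 TPM in the same 3 groups. For both genes the libraries with CM lay below those with control media without overlap. With all 24 libraries in the fit, the differences of Nfkbia, -0.47 (SE 0.30, adjusted p 0.49) with WT CM and -0.55 (SE 0.30, adjusted p 0.36) with KEAP1 KO CM, did not pass, and neither did those of Nfkbie, -0.46 (SE 0.37, adjusted p 0.63) and -0.55 (SE 0.37, adjusted p 0.5). The SE in this fit is shared by all 8 groups, including the libraries that stand apart. Without those 3 libraries, the differences of Nfkbia were -0.48 (SE 0.08, adjusted p 0.00028) and -0.55 (SE 0.08, adjusted p 6.5e-05), and those of Nfkbie -0.46 (SE 0.13, adjusted p 0.016) and -0.55 (SE 0.13, adjusted p 0.0052). KEAP1 KO CM/CDDO-Me replicate 1 was among the 3 because of the values of the 10 genes, and leaving it out lowers their SE. Neither gene was called in these comparisons when only replicate 3 of both NRF2 KO CM groups was left out.

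Both genes also passed in each comparison when the fit held only the 6 libraries compared, with adjusted p between 0.0049 and 0.036. Nfkb2 and Relb, the noncanonical subunits, had the same direction in both CM. Nfkb2 was 39.4 to 45.6 TPM in Media/vehicle, 32.4 to 33.4 TPM in WT CM/vehicle and 35.4 to 38.3 TPM in KEAP1 KO CM/vehicle, and Relb was 24.7 to 26.7 TPM, 15.0 to 20.0 TPM and 16.2 to 22.3 TPM. Their differences were -0.29 and -0.41 with WT CM and -0.20 and -0.47 with KEAP1 KO CM, none past the threshold with all libraries and all 4 past it without the 3 libraries (adjusted p between 0.0041 and 0.043). Nfkb2 and Relb were not called in these comparisons when only replicate 3 of both NRF2 KO CM groups was left out. Rel was 10.1 to 10.4 TPM in Media/vehicle and 11.7 to 15.1 TPM in WT CM/vehicle, a difference of 0.38 (SE 0.21, adjusted p 0.39) that passed without the 3 libraries (0.37, adjusted p 0.02). Nfkb1 was 72.3 to 74.8 TPM in Media/vehicle and 84.1 to 90.3 TPM in KEAP1 KO CM/vehicle, a difference of 0.23 (SE 0.11, adjusted p 0.24) that also passed without them (adjusted p 0.019). Without the 3 libraries, 6 of the 10 genes were called with each of these CM, in a fit that called 19% of all genes with WT CM and 21.2% with KEAP1 KO CM.

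The median difference of the 10 genes was -0.22 with either CM, against 0.01 and 0.00 for all genes tested. The macrophage markers summed to 22325 to 22877 TPM in Media/vehicle, 17357 to 18005 TPM in WT CM/vehicle and 16700 to 20498 TPM in KEAP1 KO CM/vehicle. Lyz2 made up most of each sum and was not called. Of the 8 markers 2, Fcgr1 and Mertk, were called lower with each CM. The markers not called moved in both directions. Adgre1 was 598 to 674 TPM in Media/vehicle and 757 to 929 TPM in WT CM/vehicle, and Cd14 was 215 to 250 TPM and 99.1 to 102 TPM. Markers of other cell types moved as well. The epithelial marker Cdh1 and the endothelial marker Pecam1 were called higher with each CM, the endothelial marker Kdr and the lymphocyte marker Cd4 lower with each, and the fibroblast marker Acta2 lower with WT CM. Epithelial markers summed to 1.55 to 2.49 TPM in Media/vehicle, 4.98 to 6.01 TPM in WT CM/vehicle and 8.76 to 9.23 TPM in KEAP1 KO CM/vehicle. Endothelial markers summed to 7.51 to 10.3 TPM, 14.2 to 26.1 TPM and 17.3 to 29.9 TPM in the same order, and lymphocyte markers to 12.5 to 15.4 TPM, 6.37 to 7.19 TPM and 5.55 to 7.23 TPM. The part of all these markers in the differences above was not tested. In bulk RNA, fewer cells of a type and less RNA of a gene per cell cannot be told apart.

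NRF2 KO CM/vehicle was not separated from Media/vehicle for any of the 10 genes, and 0.00732% of all genes tested were called. None of the 10 had an unadjusted p under 0.05 in limma. The group was uneven. Nfkbia was 86.0 and 80.9 TPM in replicates 1 and 2 and 36.6 TPM in replicate 3, and Nfkb2 was 49.5, 45.8 and 13.7 TPM. Relb, at 30.9, 26.4 and 10.1 TPM, and Nfkbie, at 23.1, 19.5 and 7.58 TPM, had the same pattern, while Rela and Rel were highest in replicate 3. Without the 3 libraries no gene of the 10 was called either, and the differences of Nfkb2, Rel, Relb, Nfkbia, Nfkbib and Nfkbie turned sign, as the plot of fold changes shows. KEAP1 KO CM/vehicle and WT CM/vehicle also had no called gene among the 10, none with an unadjusted p under 0.05, and 0 of 13661 genes called in all. The difference of Nfkbiz between them was 0.22 (95% interval -0.17 to 0.61) and that of Nfkbia -0.08 (95% interval -0.71 to 0.55).

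**Figure D2:**
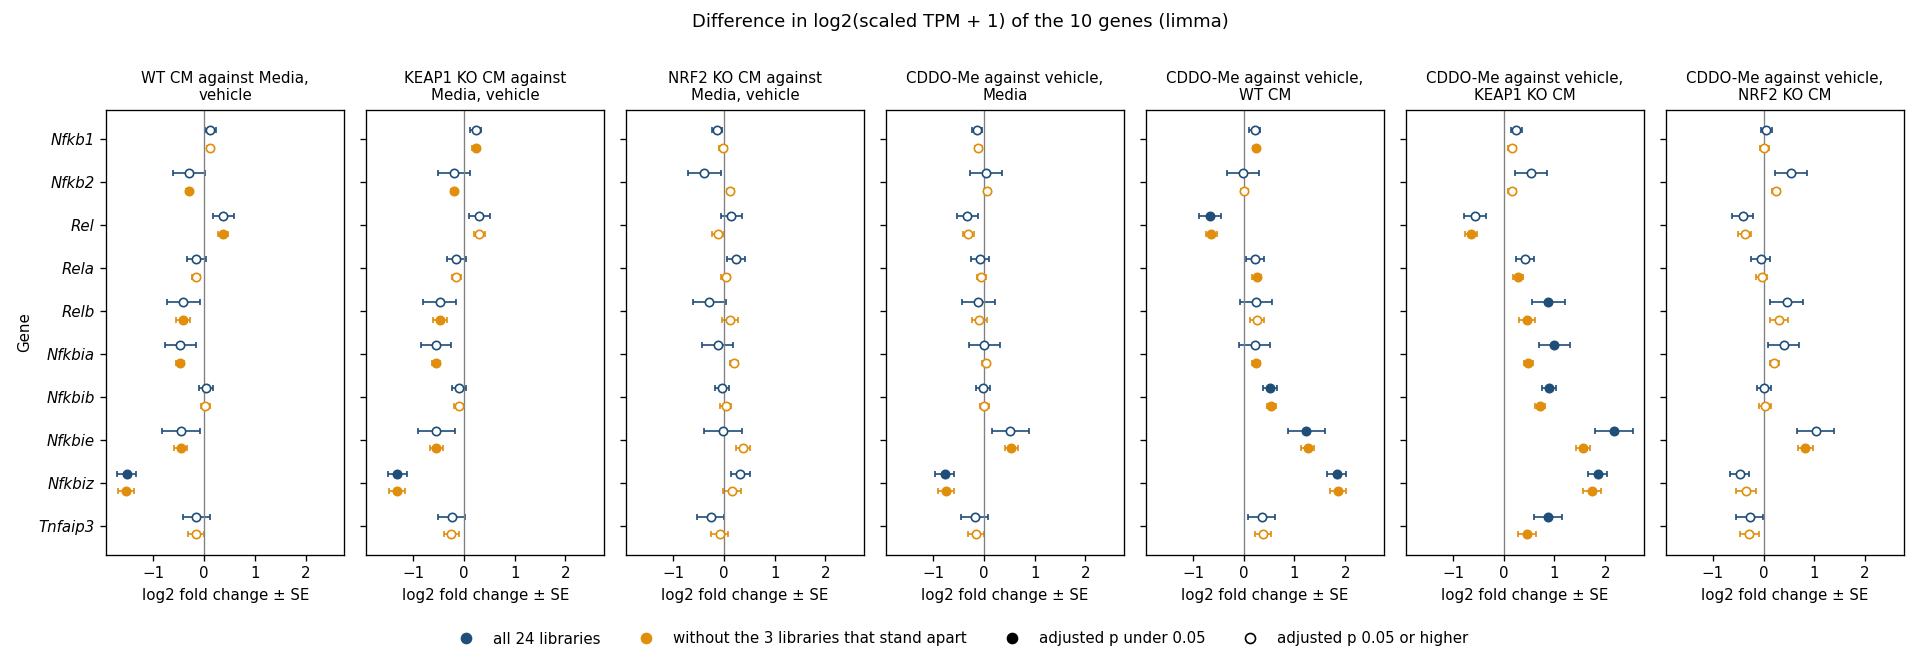
Difference on the log2(scaled TPM + 1) scale with its SE for the 10 genes in 7 comparisons, with all 24 libraries (blue) and without the 3 libraries that stand apart (orange), and filled points where the adjusted p of limma is under 0.05. The SE of Nfkbia and Nfkbie are smaller without the 3 libraries, and Nfkbiz passes in both fits with WT CM, with KEAP1 KO CM and with CDDO-Me in control media, WT CM and KEAP1 KO CM.

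In control media, CDDO-Me lowered Nfkbiz. The level was 13.5, 12.4 and 12.2 TPM with vehicle and 6.78, 8.25 and 6.05 TPM with CDDO-Me, without overlap. It fell by 0.77 (SE 0.19, adjusted p 0.015), a ratio of 0.586 on that scale, and was the only gene of the 10 called, with 6.02% of all genes tested called, 3.07% higher and 2.94% lower. The call was lost without Media/vehicle replicate 1 (-0.73, adjusted p 0.069), without Media/CDDO-Me replicate 1 (-0.74, adjusted p 0.059) and without Media/CDDO-Me replicate 3 (-0.72, adjusted p 0.064). With the replicate number as a block in limma, the difference of Nfkbiz was the same, with SE 0.18 and adjusted p 0.0089. Nfkbie was 16.9, 16.1 and 14.3 TPM with vehicle and 25.8, 25.1 and 18.6 TPM with CDDO-Me, again without overlap. Its difference of 0.52 (SE 0.37, adjusted p 0.62) did not pass with all libraries and passed without the 3 that stand apart (0.54, SE 0.13, adjusted p 0.007). Rel was 10.1 to 10.4 TPM with vehicle and 7.69 to 8.18 TPM with CDDO-Me, a difference of -0.32 (SE 0.21, adjusted p 0.56). Levels of the other 7 genes differed by between -0.18 and 0.04. Of the markers, Cd4, Kdr, Fcgr1 and Cd14 were called lower with CDDO-Me in control media and Itgam, a macrophage marker, higher. Lymphocyte markers summed to 12.5 to 15.4 TPM with vehicle and 6.25 to 6.34 TPM with CDDO-Me, and neutrophil markers to 14.6 to 27.1 TPM and 31.8 to 49.6 TPM. Their part in these differences was not tested.

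In WT CM, CDDO-Me raised Nfkbiz, Nfkbie and Nfkbib and lowered Rel. Nfkbiz was 3.40, 4.41 and 2.96 TPM with vehicle and 15.9, 16.4 and 10.6 TPM with CDDO-Me, a rise of 1.83 (SE 0.19, adjusted p 2e-07) or 3.56 times on that scale. Nfkbie was 12.4, 10.4 and 9.47 TPM with vehicle and 28.2, 26.2 and 19.9 TPM with CDDO-Me, a rise of 1.23 (SE 0.37, adjusted p 0.016). Nfkbib, which encodes IkB-beta, was 36.8, 40.5 and 35.0 TPM with vehicle and 47.2, 49.9 and 52.1 TPM with CDDO-Me, a rise of 0.51 (SE 0.14, adjusted p 0.0079). For these 3 genes every library with CDDO-Me was above every library with vehicle. Rel, which encodes c-Rel, was 12.7, 11.7 and 15.1 TPM with vehicle and 7.02, 7.16 and 7.74 TPM with CDDO-Me, all below, and fell by 0.67 (SE 0.21, adjusted p 0.023).

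These 4 of 10 stood against 27.8% of all genes tested, a background near their share. Rel lost its call without WT CM/vehicle replicate 3 (-0.55, adjusted p 0.11), without WT CM/CDDO-Me replicate 1 (-0.61, adjusted p 0.078) and without replicate 2 (-0.64, adjusted p 0.065). Nfkbie lost it without WT CM/vehicle replicate 3 (1.17, adjusted p 0.051) and without WT CM/CDDO-Me replicate 1 (1.17, adjusted p 0.054), and Nfkbib without scaling between libraries (0.40, adjusted p 0.051). Without the 3 libraries that stand apart, none of which was in these groups, the 4 genes passed and Nfkb1 (0.24), Rela (0.25) and Nfkbia (0.24) joined them, with adjusted p between 0.007 and 0.025, in a fit that called 43.4% of all genes. Nfkbia itself was 46.8 to 51.1 TPM with vehicle and 50.5 to 54.0 TPM with CDDO-Me. Nfkb2 and Relb differed by -0.02 (95% interval -0.68 to 0.64) and 0.24 (95% interval -0.44 to 0.92).

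KEAP1 KO CM/CDDO-Me replicate 1 was above both of its mates for all 10 genes, as the plot of deviations shows. Nfkbie was 108.9 TPM in it against 32.8 and 26.2 TPM, Nfkbia 179.6 TPM against 61.0 and 59.4 TPM, Nfkb2 83.8 TPM against 37.3 and 36.0 TPM, and Relb 56.4 TPM against 20.3 and 24.5 TPM. Of the 10 genes, 6 were more than 0.5 on the log2 scale above the mean of the mates. Of 31 tested textbook targets of NF-kB 21 were, while 6.7% of all genes tested were. This library was singled out on the values of the 10 genes, so their count describes that choice and tests nothing. Of 28 kinases and adaptors of the pathway, 5 were that far above.

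**Figure D3:**
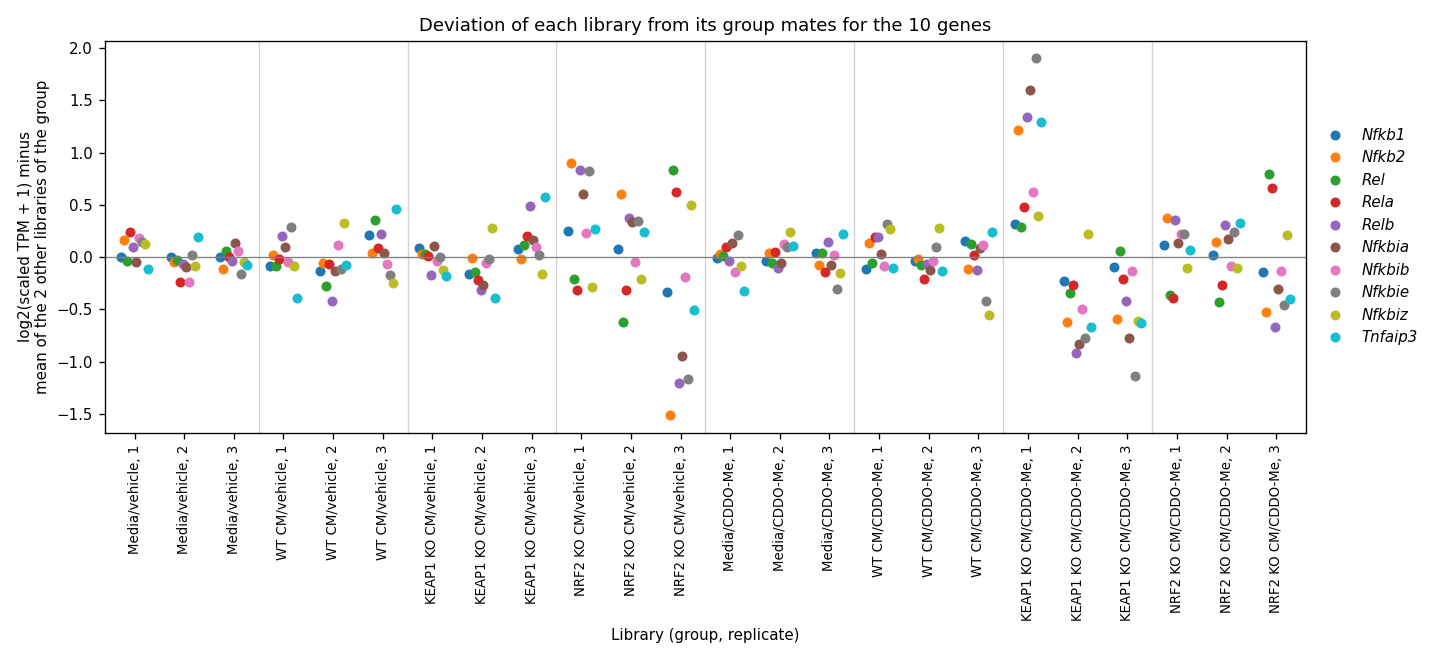
Each library's log2(scaled TPM + 1) minus the mean of the other 2 libraries of its group, for the 10 genes (colours) in the 24 libraries (columns, by group and replicate). KEAP1 KO CM/CDDO-Me replicate 1 is above its mates for all 10 genes, and NRF2 KO CM/vehicle replicate 3 is below its mates for 7 and above for Rel, Rela and Nfkbiz.

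In KEAP1 KO CM, 6 of the 10 genes were called higher with CDDO-Me and none lower, where 14.5% of all genes tested were called higher and 28.8% in either direction. Nfkbiz was 4.20, 5.51 and 3.97 TPM with vehicle and 20.0, 19.4 and 12.3 TPM with CDDO-Me, a rise of 1.85 (SE 0.19, adjusted p 1.8e-07). Nfkbie was 10.5, 10.8 and 10.3 TPM with vehicle and 108.9, 32.8 and 26.2 TPM with CDDO-Me, a rise of 2.18 (SE 0.37, adjusted p 0.00011). Nfkbib was 35.1, 36.3 and 36.2 TPM with vehicle and 79.2, 49.4 and 55.6 TPM with CDDO-Me, a rise of 0.90 (SE 0.14, adjusted p 3.7e-05). These 3 genes rose without overlap and stayed called without replicate 1 of KEAP1 KO CM/CDDO-Me, with rises of 1.72 (adjusted p 2.9e-06), 1.55 (adjusted p 0.00018) and 0.69 (adjusted p 0.00014).

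The other 3 calls were lost without that library alone. Nfkbia was 50.7, 44.3 and 50.3 TPM with vehicle and 179.6, 61.0 and 59.4 TPM with CDDO-Me, a difference of 1.00 (SE 0.30, adjusted p 0.015) that became 0.47 (adjusted p 0.1) without it. Tnfaip3 was 13.8, 13.0 and 19.4 TPM with vehicle and 46.0, 19.1 and 18.5 TPM with CDDO-Me, so the groups overlapped, and the difference of 0.87 (SE 0.27, adjusted p 0.018) became 0.44 (adjusted p 0.15). Relb was 16.6, 16.2 and 22.3 TPM with vehicle and 56.4, 20.3 and 24.5 TPM with CDDO-Me, also with overlap, and the difference of 0.88 (SE 0.32, adjusted p 0.048) became 0.43 (adjusted p 0.33). These 3 calls were also lost without KEAP1 KO CM/vehicle replicate 2, with 0.91 (adjusted p 0.062) for Nfkbia, 0.74 (adjusted p 0.086) for Tnfaip3 and 0.78 (adjusted p 0.15) for Relb. Leaving out KEAP1 KO CM/vehicle replicate 1 also ended the calls of Tnfaip3 (0.81, adjusted p 0.064) and Relb (0.82, adjusted p 0.13). Without all 3 libraries that stand apart, the fit with the smaller SE called them again at smaller sizes, with 0.49 (adjusted p 0.00018) for Nfkbia, 0.46 (adjusted p 0.043) for Tnfaip3 and 0.45 (adjusted p 0.027) for Relb. With only the 6 libraries compared in the fit, these 3 genes were not called, with adjusted p of 0.11 for Nfkbia, 0.11 for Tnfaip3 and 0.12 for Relb. Scaling also moved the split, with 3 genes called higher and 1, Rel, lower without scaling between libraries, and 6 higher and 1, Rel, lower with relative log expression scaling.

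Rel was 13.2, 12.7 and 13.3 TPM with vehicle and 8.58, 6.50 and 7.65 TPM with CDDO-Me in KEAP1 KO CM, without overlap, and its difference of -0.56 (SE 0.21, adjusted p 0.054) was just outside the threshold. It passed without the 3 libraries that stand apart (-0.64, SE 0.12, adjusted p 0.00034). In that fit 8 of the 10 genes were called, all but Nfkb1 and Nfkb2, beside 41.3% of all genes. Nfkb1 and Rela differed by 0.25 (SE 0.11, adjusted p 0.099) and 0.42 (SE 0.18, adjusted p 0.093) with all libraries, and Nfkb1 passed without KEAP1 KO CM/CDDO-Me replicate 2 (0.35, adjusted p 0.029). Levels of Rela were 78.4, 73.8 and 83.0 TPM with vehicle and 114.6, 85.5 and 83.5 TPM with CDDO-Me.

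Markers of other cell types also moved with CDDO-Me in WT CM and KEAP1 KO CM. Of 5 dendritic cell markers, 3 were tested and 2, Clec9a and Xcr1, were called higher in both CM, and the list summed to 100.1 to 126.8 TPM in WT CM/CDDO-Me and 46.9 to 86.1 TPM in KEAP1 KO CM/CDDO-Me against 0.822 to 2.02 TPM in the other groups. Clec9a and Xcr1 are themselves markers of conventional dendritic cells of type 1, and Clec9a made up most of that sum. The other markers of the list, Flt3, Zbtb46 and Siglech, were at or below 1.36 TPM in every library. Of 8 fibroblast markers none was called in WT CM and only Acta2 (lower) in KEAP1 KO CM, and the list summed to 640 to 1220 TPM with vehicle and 255 to 683 TPM with CDDO-Me in WT CM, and to 935 to 1694 TPM and 217 to 917 TPM in KEAP1 KO CM. Of 7 neutrophil markers S100a8 was called higher in both and also in NRF2 KO CM, and the list summed to 11.1 to 36.1 TPM with vehicle and 33.5 to 59.4 TPM with CDDO-Me in WT CM, and to 15.7 to 24.6 TPM and 65.6 to 74.2 TPM in KEAP1 KO CM. The epithelial markers Krt19 and Cdh1 and the endothelial marker Pecam1 were called lower in both, and of the macrophage markers Fcgr1 and Mertk were called higher and Cd68 lower in both, with Adgre1 lower in WT CM. The part of these markers in the results was not tested.

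In NRF2 KO CM, none of the 10 genes was called with CDDO-Me, where 9.78% of all genes tested were, 4.49% higher and 5.29% lower, and 2 had an unadjusted p under 0.05. Nfkbie was 23.1, 19.5 and 7.58 TPM with vehicle and 36.5, 38.3 and 23.0 TPM with CDDO-Me, higher with CDDO-Me in each pair of equal replicate number although the groups overlapped. Its difference of 1.03 (SE 0.37, adjusted p 0.095) passed with the replicate number as a block (SE 0.30, adjusted p 0.025). Same-numbered libraries deviated together in this comparison at correlations of 0.504 to 0.717. Replicate 3 stood apart in both groups, so these correlations cannot show whether the numbers pair the samples. Without the 3 libraries that stand apart it was 0.82 (SE 0.15, adjusted p 0.002). Nfkbiz was 14.0, 15.5 and 18.1 TPM with vehicle and 10.8, 11.3 and 11.0 TPM with CDDO-Me, all below, with a difference of -0.48 (SE 0.19, adjusted p 0.13). Nfkbib, at 30.0 to 41.8 TPM with vehicle and 31.1 to 42.1 TPM with CDDO-Me, differed by 0.01 (95% interval -0.27 to 0.30). Leaving out NRF2 KO CM/vehicle replicate 1 brought Nfkbie past the threshold (1.30, adjusted p 0.048), and leaving out NRF2 KO CM/CDDO-Me replicate 3 brought Rel past it (-0.65, adjusted p 0.044). Of the markers, Cd4, Kdr, Cd68 and Fcgr1 were called lower and S100a8 higher with CDDO-Me in NRF2 KO CM. Lymphocyte markers summed to 14.2 to 16.7 TPM with vehicle and 5.90 to 7.38 TPM with CDDO-Me, and neutrophil markers to 13.8 to 31.4 TPM and 33.9 to 65.3 TPM, and their part in the differences was not tested.

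Interaction terms compared the effects of CDDO-Me between media, and all but the last used the Media libraries. Nfkbiz fell with CDDO-Me in control media and rose in WT CM and KEAP1 KO CM, and the effects differed by 2.60 (SE 0.26, adjusted p 4.8e-07) in WT CM and 2.62 (SE 0.26, adjusted p 4.5e-07) in KEAP1 KO CM. It was the only gene of the 10 called for WT CM, where 15% of all genes tested were called, 8.3% higher and 6.74% lower. For KEAP1 KO CM, where 14.7% were called, 8.38% higher and 6.36% lower, Nfkbib (0.91, SE 0.20, adjusted p 0.0025) and Nfkbie (1.66, SE 0.52, adjusted p 0.038) were called as well. The term of Nfkbib was 0.70 (adjusted p 0.0038) without KEAP1 KO CM/CDDO-Me replicate 1. The term of Nfkbie was 1.02 (adjusted p 0.069) without that library, lost its call when any of 10 of the 12 libraries was left out, and was 1.02 (SE 0.19, adjusted p 0.00067) without the 3 libraries. Leaving out KEAP1 KO CM/CDDO-Me replicate 2 brought Nfkb1 (0.47, adjusted p 0.047), Nfkbia (1.28, adjusted p 0.048) and Tnfaip3 (1.29, adjusted p 0.027) past the threshold. Tnfaip3 also passed without KEAP1 KO CM/CDDO-Me replicate 3 (1.26, adjusted p 0.037) or KEAP1 KO CM/vehicle replicate 3 (1.25, adjusted p 0.04), against 1.06 (adjusted p 0.071) with all libraries.

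For NRF2 KO CM against control media none of the 10 genes was called, none had an unadjusted p under 0.05, and 0 of 13661 genes were called in all. The term of Nfkbiz was 0.30 (95% interval -0.25 to 0.85). For KEAP1 KO CM against WT CM the count was also 0 of the 10 and 0 of 13661, with none under an unadjusted p of 0.05. Nfkbiz responded by nearly the same amount in these media, with a term of 0.02 (95% interval -0.53 to 0.57), while the interval of Nfkbie, -0.15 to 2.04 around 0.95, was wide. A p that misses the threshold does not show that the effects were equal.

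Ordered by group mean, Nfkbiz was highest in KEAP1 KO CM/CDDO-Me with 17.3 ± 4.27 TPM (SD, n = 3), then NRF2 KO CM/vehicle with 15.8 ± 2.09, WT CM/CDDO-Me with 14.3 ± 3.23 and Media/vehicle with 12.7 ± 0.701. Among these 4 the ranges of neighbours overlapped. NRF2 KO CM/CDDO-Me with 11.0 ± 0.242 TPM, Media/CDDO-Me with 7.03 ± 1.12 and KEAP1 KO CM/vehicle with 4.56 ± 0.830 each lay below the one before without overlap, and WT CM/vehicle with 3.59 ± 0.744 TPM overlapped KEAP1 KO CM/vehicle. For Nfkbie the 4 groups with CDDO-Me, from 23.2 to 56.0 TPM, were above the 4 with vehicle, from 10.5 to 16.7 TPM. The highest mean, 56.0 TPM in KEAP1 KO CM/CDDO-Me, was 29.5 TPM without its replicate 1, below the 32.6 TPM of NRF2 KO CM/CDDO-Me. With all libraries, neighbours in that order overlapped except Media/vehicle, which lay above WT CM/vehicle. Nfkbib was highest in KEAP1 KO CM/CDDO-Me with 61.4 ± 15.7 TPM and WT CM/CDDO-Me with 49.7 ± 2.46 TPM, and the other 6 groups, from 35.9 to 38.4 TPM, overlapped their neighbours. For Rel the 4 groups with vehicle, from 10.3 to 13.2 TPM, were above the 4 with CDDO-Me, from 7.31 to 8.35 TPM. All neighbours in the order overlapped with all libraries. Without the 3 libraries that stand apart, libraries with vehicle were at 8.91 TPM or more and those with CDDO-Me at 8.18 TPM or less.

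With all 24 libraries, no gene of the kinases and adaptors of the pathway was called lower with CDDO-Me. Of 28 tested genes of kinases and adaptors, 3 were called higher in control media, 6 in WT CM, 13 in KEAP1 KO CM (9 without KEAP1 KO CM/CDDO-Me replicate 1) and 3 in NRF2 KO CM, with 3.07%, 13.9%, 14.5% and 4.49% of all genes called higher. Without the 3 libraries that stand apart, 15 were called higher and 1 lower in WT CM and 18 higher in KEAP1 KO CM, in a fit that called 43.4% and 41.3% of all genes. Rnf31, which encodes the catalytic subunit of the linear ubiquitin ligase, rose by 1.37 (SE 0.12, adjusted p 3.7e-08) in WT CM and 1.47 (SE 0.12, adjusted p 1.4e-08) in KEAP1 KO CM. Myd88, the adaptor of Toll-like and IL-1 receptors, rose by 1.40 (SE 0.17, adjusted p 2.4e-06) and 1.38 (SE 0.17, adjusted p 2.9e-06). Map3k14, which encodes the NF-kB-inducing kinase of the noncanonical pathway, rose in all 4 media, by 0.52 in control media, 0.95 in WT CM, 0.97 in KEAP1 KO CM and 0.69 in NRF2 KO CM. Ikbkg, which encodes the regulatory subunit NEMO, rose by 1.06 (SE 0.14, adjusted p 5.6e-05) in control media, 0.82 (SE 0.14, adjusted p 0.00058) in NRF2 KO CM and 0.38 (SE 0.14, adjusted p 0.047) in KEAP1 KO CM. The effect on Ikbkg differed by -0.81 (SE 0.20, adjusted p 0.0071) between WT CM and control media. By the interaction terms the effect of CDDO-Me differed from that in control media for 7 of the 28 genes in WT CM, 9 in KEAP1 KO CM and none in NRF2 KO CM, where 15%, 14.7% and 0% of all genes were called. It differed for 14 in WT CM (11 higher, 3 lower) and 16 in KEAP1 KO CM (14 higher, 2 lower) without the 3 libraries, beside 28.5% and 27.8% of all genes.

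Of 15 receptor genes, 10 were called in WT CM (6 higher, 4 lower) and 10 in KEAP1 KO CM (6 higher, 4 lower, or 5 and 3 without replicate 1), beside 2 in control media and 4 in NRF2 KO CM, where 27.8%, 28.8%, 6.02% and 9.78% of all genes were called. The counts without the 3 libraries were 12 in WT CM, 11 in KEAP1 KO CM, 9 in control media (3 higher, 6 lower) and 4 in NRF2 KO CM, in a fit that called 43.4%, 41.3%, 15.1% and 9.92% of all genes. Tlr9 rose by 3.05 (SE 0.27, adjusted p 2.8e-08) and Tnfrsf1a by 1.63 (SE 0.20, adjusted p 2.4e-06) in WT CM, and Il1rap fell by 1.13 (SE 0.17, adjusted p 3.1e-05). Of 17 other inhibitors and atypical IkB proteins, 4 were called in WT CM and 7 in KEAP1 KO CM (4 without replicate 1), and 1 each in control media and NRF2 KO CM, beside the same shares of all genes. In the fit without the 3 libraries they were 11 in WT CM (5 higher, 6 lower), 12 in KEAP1 KO CM (7 higher, 5 lower), 4 in control media and 2 in NRF2 KO CM. Cyld, which encodes a deubiquitinase that restrains the pathway, rose by 0.78 (SE 0.10, adjusted p 5.2e-06) and 0.81 (SE 0.10, adjusted p 3.3e-06) in the 2 media. Otulin, which encodes another deubiquitinase, fell by 0.56 (SE 0.15, adjusted p 0.0095) and 0.61 (SE 0.15, adjusted p 0.0049).

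Textbook targets of NF-kB moved in both directions. Of 31 tested, 18 were called with CDDO-Me in WT CM (12 higher, 6 lower), 21 in KEAP1 KO CM (15 higher, 6 lower, or 14 and 7 without replicate 1), 7 in control media (1 higher, 6 lower) and 10 in NRF2 KO CM (5 higher, 5 lower), where 27.8%, 28.8%, 6.02% and 9.78% of all genes were called. These counts were 22, 21, 11 and 9 without the 3 libraries, beside 43.4%, 41.3%, 15.1% and 9.92% of all genes. The median of the list was 0.21, 0.50, -0.11 and 0.18, against -0.03, -0.02, -0.01 and -0.01 for all genes tested. Cxcl10, a chemokine that is also a target of interferons, rose by 8.49 (SE 0.32, adjusted p 7.2e-14) in WT CM, and Icam1, an adhesion molecule, by 3.40 (SE 0.18, adjusted p 1.2e-11). Levels of Cxcl10 were 0.108, 0.0727 and 0 TPM in WT CM/vehicle and 361.3, 328.9 and 358.5 TPM in WT CM/CDDO-Me. The size of its rise therefore depends on the 1 added to scaled TPM. The chemokine genes Ccl3 and Ccl4 fell in all 4 media, Ccl3 by 1.46 (SE 0.25, adjusted p 0.00092) in control media and 1.70 (SE 0.25, adjusted p 2.6e-05) in WT CM, and Ccl4 by 3.40 (SE 0.39, adjusted p 9.1e-06) and 1.92 (SE 0.39, adjusted p 0.00065). Among vehicle groups, Ier3 rose by 2.77 (SE 0.31, adjusted p 4.2e-06) and Tnf fell by 1.50 (SE 0.24, adjusted p 0.00039) with WT CM, while CDDO-Me in WT CM lowered Ier3 by 1.96 and raised Tnf by 3.13. In the vehicle comparison of WT CM 7 of the 31 were called, 3 higher and 4 lower, and 7.34% of all genes.

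**Figure D4:**
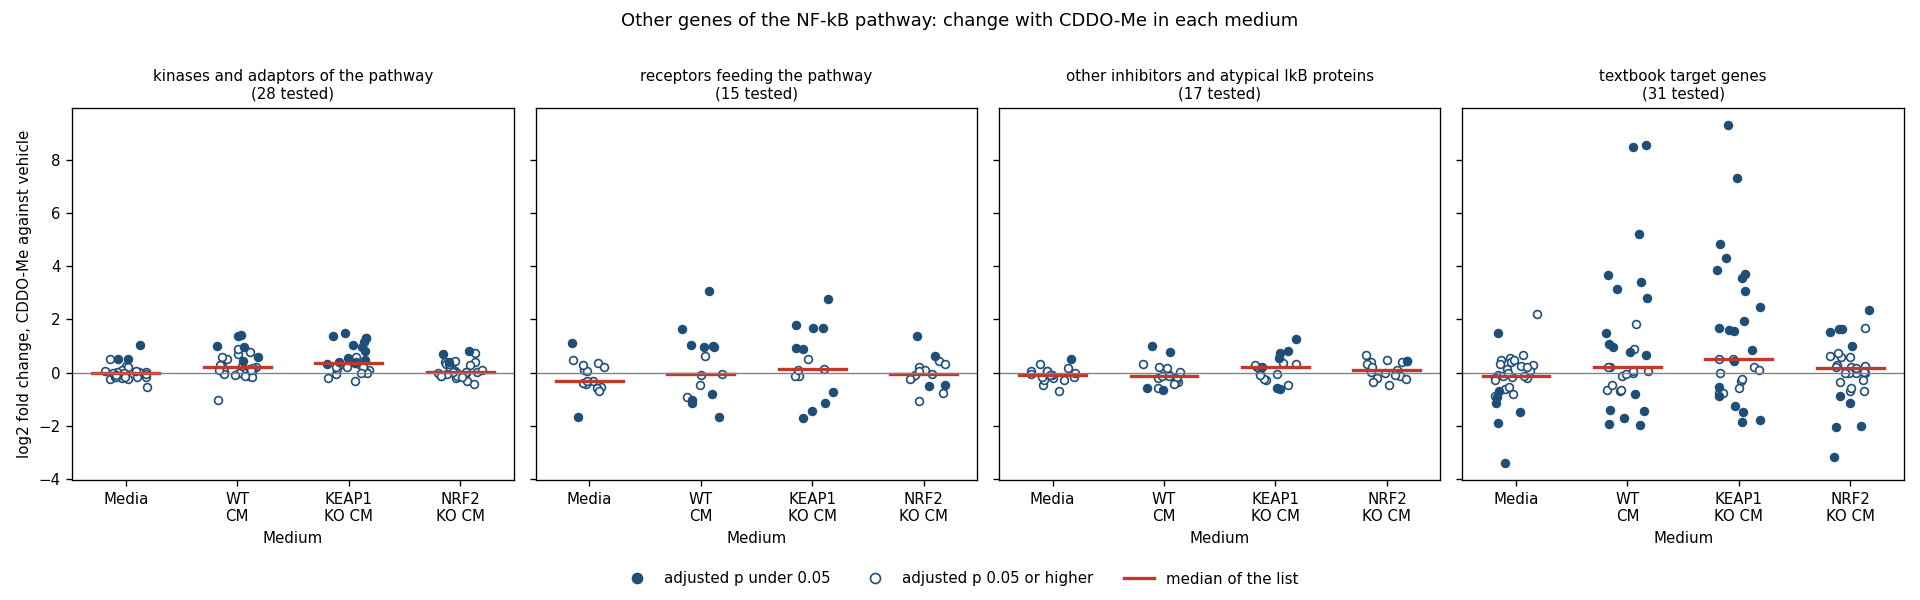
Log2 fold change with CDDO-Me in each medium for the tested genes of 4 lists of the NF-kB pathway outside the 10 genes, with filled points where the adjusted p is under 0.05 and a red line at the median of the list. More points are filled in WT CM and KEAP1 KO CM than in control media and NRF2 KO CM, and the targets include points above 8 and points below 0.

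The 10 genes did not share a single pattern. Across the 24 libraries, which share groups and scaling, the levels of Relb and Nfkbia had a Pearson correlation of 0.93 on the log2 scale, and of 0.89 over the 21 libraries without the 3 that stand apart. Nfkb2 and Relb had 0.91 and 0.77. Rel ran against Nfkbie, with -0.67 and -0.92. Nfkb1 and Nfkb2 had 0.37 over 24 libraries and -0.60 over 21, so the sign of that value depended on the 3 libraries.

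Outside the 10, among 10052 genes with a mean of at least 5 TPM, those most like each of the 10 over the 24 libraries were Maff for Nfkbie (0.94, and 0.93 over 21 libraries), Acsl1 for Nfkbib (0.94 and 0.93), Purb for Rel (0.94 and 0.96), Ccdc86 for Nfkb1 (0.92 and 0.90) and Cttnbp2nl for Nfkbiz (0.91 and 0.90). Orai2 was the gene outside the 10 most like Nfkbia (0.81 and 0.75), Mtmr14 that most like Tnfaip3 (0.83 and 0.79) and Fam177a that most like Relb (0.84 and 0.68). The gene outside the 10 most like Rela was Nab1 with 0.89, which dropped to 0.58 over 21 libraries. For Nfkb2 the most like gene outside the 10 was Psd (0.89 and 0.91), the gene whose exons overlap it on the opposite strand.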

How the data were processed

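RNA of 24 BMDM libraries had been read as poly-A libraries, and the authors quantified them with Kallisto on GRCm39 transcripts. The values the authors deposited are called length-scaled TPM gene counts. They were treated as TPM, since they are not whole numbers and the named genes of each library sum to between 999365 and 999800.9. Such a sum does not by itself show that length was corrected for. A single row without a gene name was left out (at most 0.0635% of a library). Read numbers are not kept, so the depth of each library is unknown and no count model was used. The authors' low count filter and TMM were not applied to the deposited table.

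Groups and replicate numbers came from the sample labels. TPM were divided by trimmed mean of M values factors without weights (trims of 30% and 5%), and log2 of the scaled TPM plus 1 was fitted with limma 3.58.1 in R 4.3.3, with a trend and 8 groups in 1 fit of 16 residual degrees of freedom. Genes above 1 TPM in at least 3 libraries were tested. Two-sided tests were used, with Benjamini-Hochberg correction across the 13661 genes and a threshold of 0.05. The genes named were the 10 and, of each other list and for each of the 12 comparisons, up to 3 with the smallest adjusted p past the threshold, of which the text prints part. Values of such a gene in further comparisons were added after they were seen. The genes most alike were those with the highest correlation. The members and lists were chosen with earlier results of these data known.

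Replicate numbers were taken to pair the samples where every same-numbered pair deviates together at a correlation above 0.1. This held for WT CM/vehicle against Media/vehicle, KEAP1 KO CM/vehicle against WT CM/vehicle, and CDDO-Me in control media and in NRF2 KO CM. In NRF2 KO CM replicate 3 stood apart in both groups, so the rule cannot show pairing there. The main fit held no block for the replicate number, and the calls that such a block changed are given at the end. The fits were also run on simulated data with independent noise. That noise held no libraries that stand apart and no shared replicate effect, so it cannot test how these move the calls. Gene positions came from GENCODE on GRCm39 and promoters from RefSeq on GRCm38.p6. Alternatives were other scalings, filters and pseudocounts, no trend, array weights, a replicate block, the compared groups alone, and libraries left out. Leaving out the 3 libraries that stand apart was chosen after seeing the data, KEAP1 KO CM/CDDO-Me replicate 1 for the members' own values.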

Additional observations from a re-analysis of the deposited data

Results flagged for a closer look

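The effect of CDDO-Me on 3 of the genes differed between media by a test of the difference itself. For Nfkbiz the effect in WT CM exceeded that in control media by 2.60 (SE 0.26, adjusted p 4.8e-07 in limma), and the effect in KEAP1 KO CM exceeded it by 2.62 (adjusted p 4.5e-07). All 3 libraries with CDDO-Me were below all 3 with vehicle in control media and above them in WT CM and KEAP1 KO CM. In NRF2 KO CM the libraries with CDDO-Me were below those with vehicle, as in control media. For Nfkbib the difference between KEAP1 KO CM and control media was 0.91 (adjusted p 0.0025), and for Nfkbie it was 1.66 (adjusted p 0.038), a call that was lost without KEAP1 KO CM/CDDO-Me replicate 1 (1.02, adjusted p 0.069). The call of Nfkbie was lost when any of 10 of the 12 libraries was left out, without scaling between libraries (1.50, adjusted p 0.077) and without a filter on low values (1.64, adjusted p 0.083), and was made in 11 of 23 alternatives. All 4 results used the Media libraries.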

How the results depend on the processing

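Of 17 called differences, 9 stayed called in every alternative and none turned sign. Of 103 that were not called, 27 turned sign and 34 passed the threshold in some alternative. The counts of called genes below are of the 10. With array weights they were 2 with WT CM and 4 with KEAP1 KO CM against control media (1 each with equal weights), 1 for KEAP1 KO CM against WT CM (0), 2, 10 and 2 for CDDO-Me in control media (1), KEAP1 KO CM (6) and NRF2 KO CM (0), and 4 and 9 for the interactions of WT CM (1) and KEAP1 KO CM (3) with control media. In that order array weights called 30.2%, 36.8%, 7.91%, 26.3%, 51.4%, 22.2%, 39.5% and 39.4% of all genes. Without replicate 3 of both NRF2 KO CM groups they were 2, 2, 10, 3 and 7 for the CM of WT and of KEAP1 KO cells against control media, CDDO-Me in KEAP1 KO CM and those interactions, beside 19.1%, 21.8%, 45.3%, 28.9% and 29.8% of all genes. Without the 3 libraries that stand apart, chosen after seeing the data, they were 6 and 6 for these CM, 2, 7 and 1 for CDDO-Me in control media, WT CM and NRF2 KO CM, and 4 for the WT CM interaction, beside 19%, 21.2%, 15.1%, 43.4%, 9.92% and 28.5% of all genes. With only the compared groups they were 4 and 3 for the CM, 2 for CDDO-Me in control media and 4 for the WT CM interaction, beside 16.5%, 17.5%, 12.8% and 28.2% of all genes. For CDDO-Me in KEAP1 KO CM that fit ended the calls of Relb, Nfkbia and Tnfaip3 and added Rel (-0.56, adjusted p 0.016), 4 calls in all beside 39.3% of all genes. With the replicate block the count for CDDO-Me in NRF2 KO CM was 1, beside 14.6% of all genes. Rel was called with the block in KEAP1 KO CM (adjusted p 0.013), and the block changed no other call. In KEAP1 KO CM same-numbered libraries deviated together at correlations of 0.0936 to 0.421, with a mean of 0.291 against -0.141 for different numbers. The lowest of them missed the rule set for pairing. With single libraries left out, counts for CDDO-Me ranged from 0 to 1 in control media, 2 to 4 in WT CM, 3 to 7 in KEAP1 KO CM and 0 to 1 in NRF2 KO CM, and from 2 to 6 for the KEAP1 KO CM interaction. Without scaling the median difference of all genes for CDDO-Me in KEAP1 KO CM was -0.17 instead of -0.02. The causes of these changes were not tested. The study gives an average depth, but that of each library is unknown, so how far it limits Rel and Nfkbiz, the genes of lowest level, cannot be given.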
